A study of Drosophila melanogaster with 6 samples.

Results

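Transcripts of 10 genes of nucleosome assembly were followed in sorted midgut progenitors of adult Drosophila melanogaster, the replacement histone genes His3.3A, His3.3B, His2Av and His4r and the histone chaperone genes asf1, Hira, yem, Caf1-180, Caf1-105 and Nap1. They were chosen by name as polyadenylated histone genes outside the histone repeat and as chaperones, with earlier results of these data known. All 10 were found by FlyBase symbol among the 17807 genes of the deposited table. Each of the 10 reached at least 1 TPM (an expression unit that corrects for the length of the gene and sums to the same total in every library) in all 6 libraries, so the filter on low values removed none of them.

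Progenitors here are intestinal stem cells and enteroblasts (ISC/EB) isolated by flow cytometry through GFP. All flies carried esgts, a temperature-sensitive driver active where escargot is expressed, and UAS-GFP; 3 control libraries had these alone, and 3 H1 RNAi libraries also had UAS H1 RNAi 1, a single RNA interference line against the linker histone H1. Each replicate, lettered A, B or C, pooled 70 guts and gave at most 100000 sorted cells. The sample entries give an induction of 4 days at 29 °C, whereas the growth text speaks of Dam expression and has flies aged 3 days moved from 18 °C to 29 °C for 1 day. Separate crosses or days are not stated for the replicates, so the p-values cover the spread between these samples alone, part of which may be technical, and the depth behind each value is unknown.

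The core histones made in S phase come from a repeated gene cluster whose transcripts lack a poly(A) tail. Replacement histones are made from single genes with ordinary polyadenylated mRNA and can enter chromatin at any time. His3.3A and His3.3B encode the same H3.3 protein, His4r encodes an H4 protein, and His2Av is the only fly H2A variant of its kind, serving the roles that H2A.Z and H2A.X have in mammals. Chaperones carry histones to DNA: Asf1 hands H3-H4 to the HIRA complex, which deposits H3.3 outside replication, and to CAF-1, which works behind replication forks, while Nap1 handles H2A-H2B.

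Several measurements of the libraries bear on these genes. H1 itself could not be followed, since 114 of the 119 genes and pseudogenes of the histone repeat were listed at 0 in all 6 libraries. Progenitor markers were present, with summed TPM of 1356 to 1669 over 7 genes in control and 1525 to 1682 in H1 RNAi. The log2 fold change was positive for 3 of the 7, with a median of -0.06, and 0 were called by limma. The gene esg is not analysed here. Markers of enteroendocrine cells were present too. Of their 8 genes 2, Tk and NPF, were called lower after knockdown (limma, adjusted p under 0.05), against 0.554% of all tested genes. Under TMM scaling 0 of 8 were called. An unadjusted p under 0.05 in either direction was found for 5 of 8, against 23.8% of all tested genes. Of the 8 log2 fold changes 4 were positive, and Mip (4.29 and 11.1 TPM) and CCHa2 (1.09 and 3.28 TPM) were higher in H1 RNAi without overlap (limma adjusted p = 0.104 for both). The 8 genes, 0 of them at 0 in all libraries and NPF by far the most abundant, summed to 2280 to 3061 TPM in control libraries, against 1029 to 1533 TPM after knockdown. Those of 7 enterocyte genes overlapped, at 426 to 1293 and 668 to 1520 TPM. Of the 7 log2 fold changes 6 were positive, with a median of 0.69, and 0 were called by limma. Without control A 3 of the 7 were positive, and the median was -0.05. Of 3 tracheal markers, summing to 9.79 to 19.8 and 72.5 to 93.1 TPM, dysf rose, while trh was at 0.107 and 0.0533 TPM. With no filter on low values, 1 of the 3 log2 fold changes, that of dysf, was positive, and those of btl and trh were not. Markers of muscle and of hemocytes each summed to 4.66 TPM or less per library. Germline markers summed to 5.58 TPM in control B and to 0.55 to 1.15 TPM in each other library. The part of these other cells in the results below was not tested, and in such bulk samples fewer cells of a type cannot be told apart from less RNA per cell. Control B stood apart from the other libraries on the second principal component, which held 25% of the variance. With the deposited scaling, the 8124 tested genes had a median log2 fold change of 0.14, so values are also given relative to that shift.

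The 10 genes spanned a wide range of abundance, and the order was set by gene far more than by knockdown. Nap1 was the highest, at 1003 to 1259 TPM over the 6 libraries, above 98.4% of tested genes in mean level. His4r followed at 710 to 944 TPM and His3.3B at 465 to 533 TPM, and each of these 3 genes stood above the next in all 6 libraries. His2Av, at 198 to 289 TPM, and His3.3A, at 106 to 324 TPM, changed places: His2Av was above His3.3A in the 3 control libraries and below it in the 3 H1 RNAi libraries. The H3-H4 chaperones were much scarcer. The next in order was asf1 at 21.2 to 48.2 TPM, then yem at 10.4 to 14.1 TPM, which was above Hira (7.86 to 12.6 TPM) in all 6 libraries. Hira and Caf1-180 (5.57 to 11.4 TPM) were not separated, with Hira the higher in 4 of 6 libraries. Caf1-105 was the lowest at 2.85 to 4.97 TPM, above 17.0% of tested genes.

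**Figure D1:**
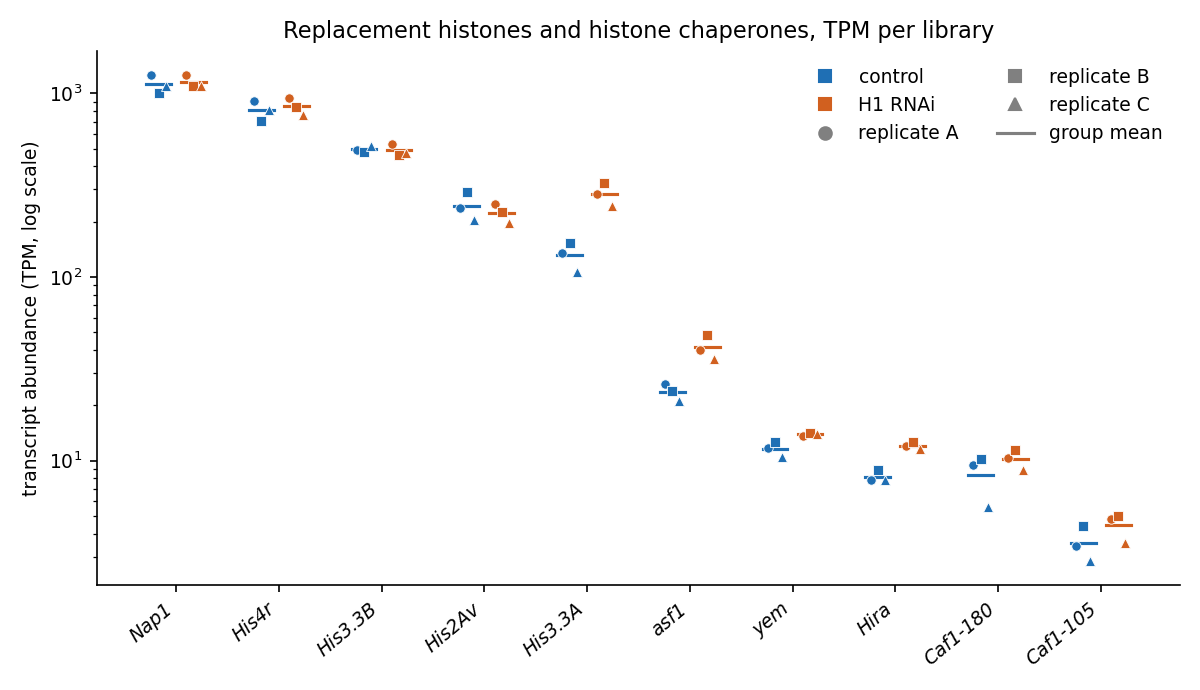
Abundance of the 10 genes in each library, in TPM on a log axis, ordered by mean level, with control in blue, H1 RNAi in orange, a marker shape per replicate letter and a line at each group mean. The control and H1 RNAi points are separate for His3.3A, asf1, Hira and yem and overlap for the other 6 genes.

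The question was whether the supply of replacement histones and of their chaperones differs when H1 is knocked down. Of the 10 genes, His3.3A and asf1 rose, 0 fell and 8 did not pass (limma on log2(TPM + 1), adjusted p under 0.05 over all 8124 tested genes), against 2.83% of all tested genes called in either direction and 2.28% called higher. The groups did not overlap for 4 of the 10 genes, all higher in H1 RNAi, against 24.3% of tested genes that were higher without overlap. Among the 10 the median log2 fold change was 0.26, against 0.14 for all tested genes. It was 0.14 with TMM scaling (trimmed mean of M values) and 0.06 with quantile normalization, where that of all tested genes was 0.01 and -0.01. Without control C the median of the 10 was 0.11, against 0.09 for all tested genes. Over all genes the calls were 185 higher and 45 lower as deposited, 88 and 53 with TMM scaling and 83 and 63 with quantile normalization.

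His3.3A (FBgn0014857; dm6, chromosome arm 2L, 5055058 to 5056149, plus strand) was at 135, 154 and 106 TPM in control A, B and C and at 283, 324 and 244 TPM in H1 RNAi A, B and C. Every knockdown library was above every control library, and the lowest of them was well above the highest control. The fold between means was 2.15, with a log2 fold change of 1.10 ± 0.17 (SE, 95% interval 0.69 to 1.52, n = 3 per group, limma adjusted p = 0.0314), or 0.97 above the median of all tested genes. It remained called with TMM scaling (0.97, adjusted p = 0.0309) and quantile normalization (1.04, adjusted p = 0.0185). Leaving out control B, where 5.54% of all tested genes were called, kept the call (limma adjusted p = 0.0174). Leaving out any other library ended it. The adjusted p was then 0.0661 for control A, 0.0948 for control C and 0.102, 0.140 and 0.0824 for the knockdown libraries A, B and C, while the log2 fold change stayed between 0.96 and 1.22. Exons of Nepl3, a neprilysin-like gene on the opposite strand, cover 168 bp of the His3.3A exons. Nepl3 was at 11.4 ± 5.10 and 19.1 ± 0.749 TPM (SD, n = 3), with a limma adjusted p of 0.136. Although the kit keeps the strand, its use in counting is not stated, so shared reads cannot be told apart.

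His3.3B (FBgn0004828; X, 9152523 to 9156669, minus strand) did not pass. Its TPM were 493, 481 and 517 in control A, B and C and 533, 465 and 473 in H1 RNAi A, B and C. The groups overlapped and no library was far from the rest. The fold was 0.986 and the log2 fold change -0.02 ± 0.10, with a 95% interval for the fitted fold of 0.832 to 1.17 (limma adjusted p = 0.920). The spread between control replicates was narrower than for His3.3A, with an SD of 18.6 on a mean of 497 TPM against 24.0 on a mean of 132 TPM.

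Because His3.3A and His3.3B encode one protein, their TPM were also summed. The sum was 628, 635 and 624 TPM in the control libraries and 816, 788 and 717 TPM in H1 RNAi A, B and C. All 3 knockdown sums were above the control sums. Mean sums were 629 ± 5.63 and 774 ± 51.2 TPM (SD, n = 3 per group, 1.23-fold, exact two-sided permutation p = 0.1, the smallest that 3 against 3 allows). The fold of the sum was 1.12 with TMM scaling and 1.22 with quantile normalization, again with no overlap. The SD of the control sums was the smaller as deposited and the larger with TMM scaling, at 28.4 TPM against 10.1 TPM in H1 RNAi. His3.3A supplied 21.6%, 24.2% and 17.0% of the sum in control A, B and C and 34.6%, 41.1% and 34.0% in H1 RNAi A, B and C. This share does not depend on a library's scale factor, and its means of 21.0 ± 3.63% and 36.6 ± 3.89% (SD, n = 3, exact permutation p = 0.1) differed by 15.6 percentage points. How reads matching both genes were counted is not stated, so the division between the 2 genes is uncertain to that extent.

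**Figure D2:**
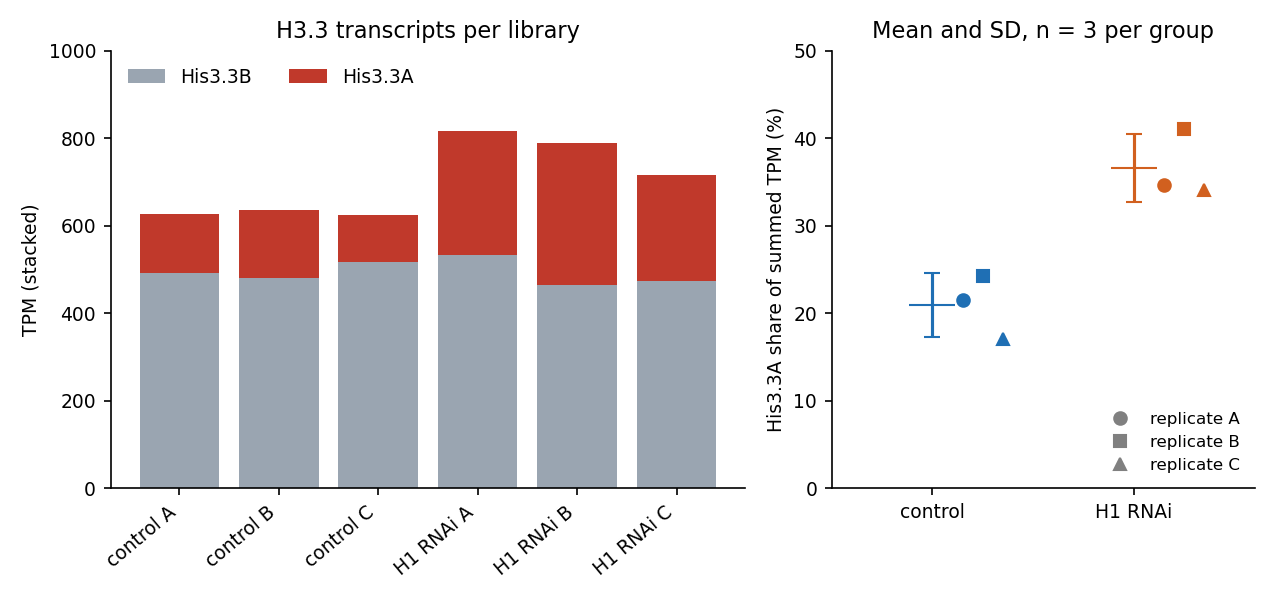
Left, TPM of His3.3B (grey) and His3.3A (red) stacked for each library, with bar heights starting at 0; right, the His3.3A share of their sum in percent, with points for replicates and a bar for mean and SD (n = 3 per group). The grey part is alike in all 6 libraries, and the red part is larger in H1 RNAi, where the share is 34.0% to 41.1% against 17.0% to 24.2% in control.

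The other replacement histones did not pass in either direction. His2Av (3R, 26866929 to 26869220, plus strand) was at 236, 289 and 205 TPM in control A, B and C and at 249, 227 and 198 TPM in H1 RNAi A, B and C, with overlapping groups. Its log2 fold change was -0.11 ± 0.16 (limma adjusted p = 0.723), with a fitted fold between 0.712 and 1.21 at 95% confidence. His4r (3R, 14625755 to 14626614, plus strand) was at 904, 710 and 811 TPM in control, against 944, 844 and 758 TPM in H1 RNAi. Its log2 fold change of 0.07 ± 0.13 (limma adjusted p = 0.777) became -0.06 with TMM scaling, and the 95% interval of its fitted fold was 0.853 to 1.29. For both genes the interval leaves out a rise or fall as large as the fitted 2.15-fold of His3.3A.

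The chaperone that rose was asf1 (FBgn0029094; 3L, 19618894 to 19620398, plus strand), which binds H3-H4 dimers for either assembly route. It was at 26.2, 24.0 and 21.2 TPM in control A, B and C and at 40.3, 48.2 and 35.99 TPM in H1 RNAi A, B and C. All 3 knockdown values were above all 3 control values. The fold between means was 1.75 and the log2 fold change 0.77 ± 0.14 (95% interval 0.45 to 1.10, limma adjusted p = 0.0418), or 0.64 above the median of all tested genes. The call held with TMM scaling (0.65, adjusted p = 0.0470) and without control B (adjusted p = 0.0451). It was lost with quantile normalization (0.62, adjusted p = 0.0573), without control A (adjusted p = 0.0661), control C (0.136), or knockdown library A (0.115), B (0.160) or C (0.0896).

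The HIRA complex, which receives H3.3-H4 from Asf1, had no called member. Hira (X, 7722119 to 7725917, plus strand), its WD-repeat subunit, was at 7.86, 8.85 and 7.88 TPM in control, against 12, 12.6 and 11.6 TPM in H1 RNAi. The groups did not overlap, with a 1.47-fold difference between means and a log2 fold change of 0.51 ± 0.11 (95% interval 0.24 to 0.77), but the adjusted p was 0.0663 by limma. The limma adjusted p was 0.116 with TMM scaling, 0.200 with quantile normalization and 0.0369 with array weights, where 6.73% of all tested genes were called. The partner subunit gene yem (3R, 29118330 to 29122879, minus strand), the fly ubinuclein, was at 11.8, 12.6 and 10.4 TPM in control, against 13.7, 14.1 and 14.1 TPM in H1 RNAi. Its groups also did not overlap, by a narrower margin, with a log2 fold change of 0.25 ± 0.11 (limma adjusted p = 0.215) that was 0.03 with quantile normalization. Atg14 on the opposite strand covers 61 bp of yem exons and was more abundant, at 21.3 and 30.4 TPM. It was higher in H1 RNAi without overlap, with a log2 fold change of 0.50 (limma adjusted p = 0.0556). Reads shared by Atg14 and yem cannot be told apart here either. The ratio of Hira to yem within a library, a comparison added after the values were seen, was 0.669 to 0.756 in control and 0.825 to 0.892 in H1 RNAi (exact permutation p = 0.1, the smallest possible).

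The subunit genes of CAF-1, the assembly factor recruited to replication forks, varied more between replicates. Caf1-180 (X, 8602137 to 8606304, minus strand), the large subunit, was at 9.44, 10.2 and 5.57 TPM in control A, B and C and at 10.3, 11.4 and 8.90 TPM in H1 RNAi A, B and C. Caf1-105 (2R, 10466001 to 10468540, minus strand), the middle subunit, was at 3.43, 4.43 and 2.85 TPM in control, against 4.83, 4.97 and 3.58 TPM in H1 RNAi. The replicates lettered C were the lowest of their group for both genes, and the groups overlapped. Log2 fold changes were 0.29 ± 0.22 for Caf1-180 (limma adjusted p = 0.471) and 0.26 ± 0.20 for Caf1-105 (adjusted p = 0.473). That of Caf1-180 was 0.05 without control C. Caf1-55, the small subunit, which other chromatin complexes share, was at 38.4 ± 6.21 and 44.2 ± 6.53 TPM (SD, n = 3, limma adjusted p = 0.486). Within a library Caf1-180 was 1.95 to 2.75 times as abundant as Caf1-105, a comparison that was not planned. Mean ratios were 2.33 in control and 2.31 in H1 RNAi (exact permutation p = 1).

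Nap1 (2R, 23905175 to 23907294, minus strand), the H2A-H2B chaperone, was at 1259, 1003 and 1102 TPM in control A, B and C and 1254, 1098 and 1098 TPM in H1 RNAi A, B and C. The groups overlapped, with a log2 fold change of 0.04 ± 0.11 (limma adjusted p = 0.859) and a fitted fold between 0.858 and 1.23 at 95% confidence. The direction was negative with TMM scaling, at -0.09. The noncoding gene asRNA:CR45926 on the opposite strand covers 1060 bp of its exons and was at 8.36 and 8.08 TPM, and CG13562 covers 95 bp and was at 0.430 and 1.56 TPM, all far below Nap1. Nap1 transcripts were 41.9 to 52.1 times as abundant as those of asf1 in control and 22.8 to 31.1 times in H1 RNAi. This ratio was not planned and largely restates the rise of asf1 given above.

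**Figure D3:**
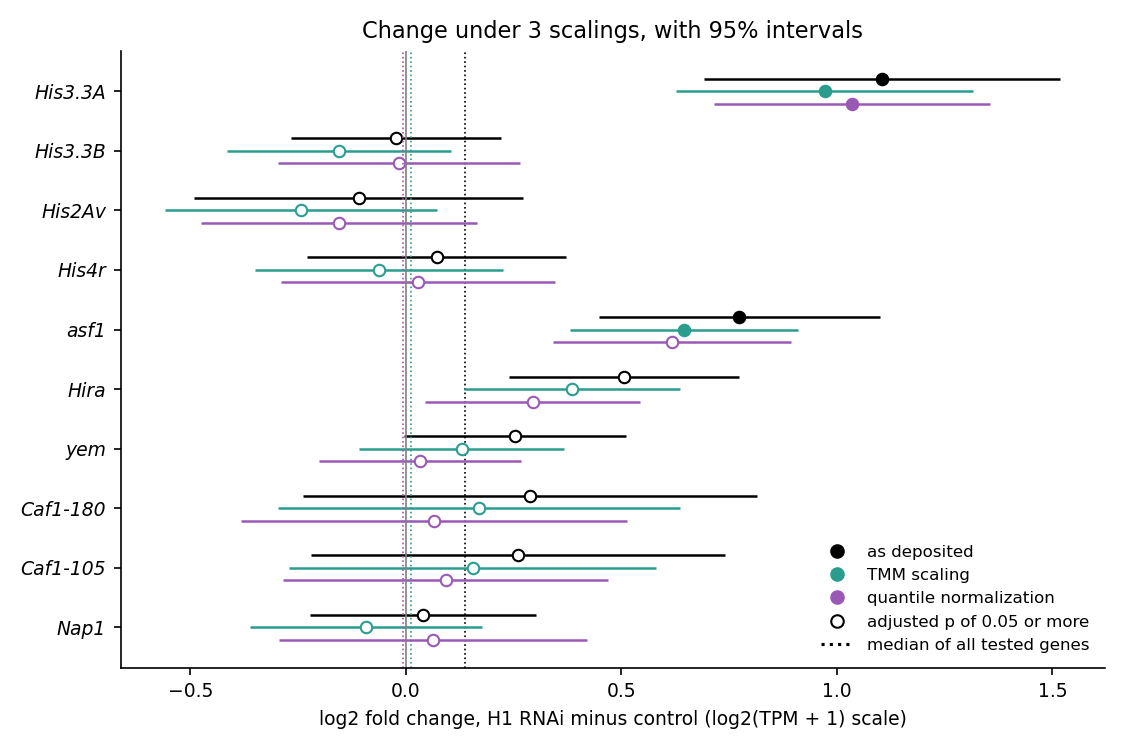
Log2 fold change of each gene, H1 RNAi minus control, with limma's 95% interval, as deposited (black) and with TMM scaling (green) or quantile normalization (purple); filled points have an adjusted p under 0.05 and dotted lines mark the median of all tested genes. His3.3A is filled in all 3 scalings and asf1 as deposited and with TMM scaling, and the other 8 genes are open throughout.

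Other genes of histone supply and deposition gave no call. Of 12 tested H3-H4 assembly partners (remodellers, elongation factors and chaperones), 0 passed by limma and 2 had an unadjusted p under 0.05, where 23.8% of all tested genes did, with a list median of 0.12 on the log2 scale (-0.0062 with TMM scaling). Chd1, a remodeller that acts in H3.3 incorporation in fly embryos, was at 42.7 ± 2.46 and 51.8 ± 1.19 TPM (limma adjusted p = 0.142), Ssrp, a subunit of the FACT chaperone, at 74.2 ± 37.9 and 117 ± 3.76 TPM (adjusted p = 0.193), the elongation factor gene spt4 at 22.9 ± 3.44 and 28.7 ± 4.03 TPM (adjusted p = 0.244), and Mcm2 at 5.46 ± 2.34 and 7.40 ± 1.57 TPM (adjusted p = 0.438; SD, n = 3 per group). Without control B, Ssrp was called (log2 fold change 1.15, limma adjusted p = 0.00494), as were 5.54% of all tested genes. Of 17 tested genes of H2Av exchange, the subunits of the Domino/Tip60 and related remodellers, 0 passed and 4 had an unadjusted p under 0.05, a share close to the 23.8% of all tested genes. Groups did not overlap for 7 of the 17, all higher in H1 RNAi, against 24.3% of tested genes that were higher without overlap. The smallest adjusted p of that list was for Arp5, at 14.3 ± 1.01 and 19.6 ± 0.810 TPM (log2 fold change 0.43, limma adjusted p = 0.0707, and 0.0365 with array weights). Array weights called 6.73% of all tested genes, against 2.83% without them. YL-1, which binds H2A.Z-type histones, had a log2 fold change of 0.36, Eaf6 of 0.33 and Ing3 of 0.32 (adjusted p of 0.117, 0.119 and 0.126). The list median was 0.19, 0.06 with TMM scaling and -0.01 with quantile normalization, close to the median of all genes in each case.

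The 10 genes of histone pre-mRNA 3′ processing and of the histone locus body, the nuclear site where repeat histone genes are transcribed, had a higher median log2 fold change than all tested genes. All 10 had a positive log2 fold change (68.3% of tested genes did), though 9 of 10 with TMM scaling or quantile normalization, and that of Cpsf160, 0.12, was below the 0.14 of all tested genes; 7 of 10 had groups that did not overlap, all of them higher (24.3% of tested genes), and 7 had an unadjusted p under 0.05 (23.8% of tested genes), but 0 passed the adjusted threshold by limma. The list median was 0.45, and it was 0.32 with TMM scaling and 0.24 with quantile normalization, where 3 genes had an unadjusted p under 0.05. Summed TPM of the list were 117, 105 and 97.7 in control A, B and C and 149, 152 and 136 in H1 RNAi A, B and C. Its scaffold gene mxc had means of 6.52 ± 0.496 and 10.8 ± 1.22 TPM, a log2 fold change of 0.65 ± 0.13 with an adjusted p of 0.0581 by limma. The endonuclease gene Cpsf73 was at 17.1 ± 2.24 and 25.6 ± 2.97 TPM (a change of 0.56 ± 0.13, adjusted p = 0.0779), and the stem-loop binding protein gene Slbp at 21.3 ± 3.09 and 29.0 ± 0.492 TPM (0.44 ± 0.12, adjusted p = 0.0964). For the locus body gene mute the log2 fold change was 0.45, with an adjusted p of 0.0988. With array weights mxc and Cpsf73 were called, and mxc also with moderation lacking trend and robustness (adjusted p of 0.0410, 0.0494 and 0.0487). The shares of all tested genes called were 6.73% with array weights and 2.94% with that moderation.

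Replication genes, measured beside CAF-1, also gave no call by limma: 0 of 14 passed and 3 had an unadjusted p under 0.05, against 23.8% of all tested genes. Their summed TPM were 158, 252 and 96.3 in control A, B and C and 218, 289 and 209 in H1 RNAi A, B and C, so the order within the control group was that of Caf1-180 and of Caf1-105. The sliding clamp gene PCNA had means of 23.1 ± 10.6 and 56.4 ± 17.9 TPM and a log2 fold change of 1.32 ± 0.37 (adjusted p = 0.0988, and 0.0446 with array weights), while Mcm3 had a log2 fold change of 0.51, Cdc6 of 0.60 and Mcm6 of 0.70 (adjusted p of 0.187, 0.188 and 0.220). The list median was 0.45, fell to 0.05 without control C and rose to 0.66 without control B. Without control B, PCNA, RnrL and Orc1 were called, where 5.54% of all tested genes were, against 2.83% with all 6 libraries. With array weights, 6.73% of all tested genes were called. Orc1 was at 1.76, 21.0 and 1.13 TPM in control A, B and C and at 3.45 to 4.04 TPM in H1 RNAi, so its value in control B stood far above the other libraries. The part of cycling in the values of asf1 and CAF-1 was not tested.

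**Figure D4:**
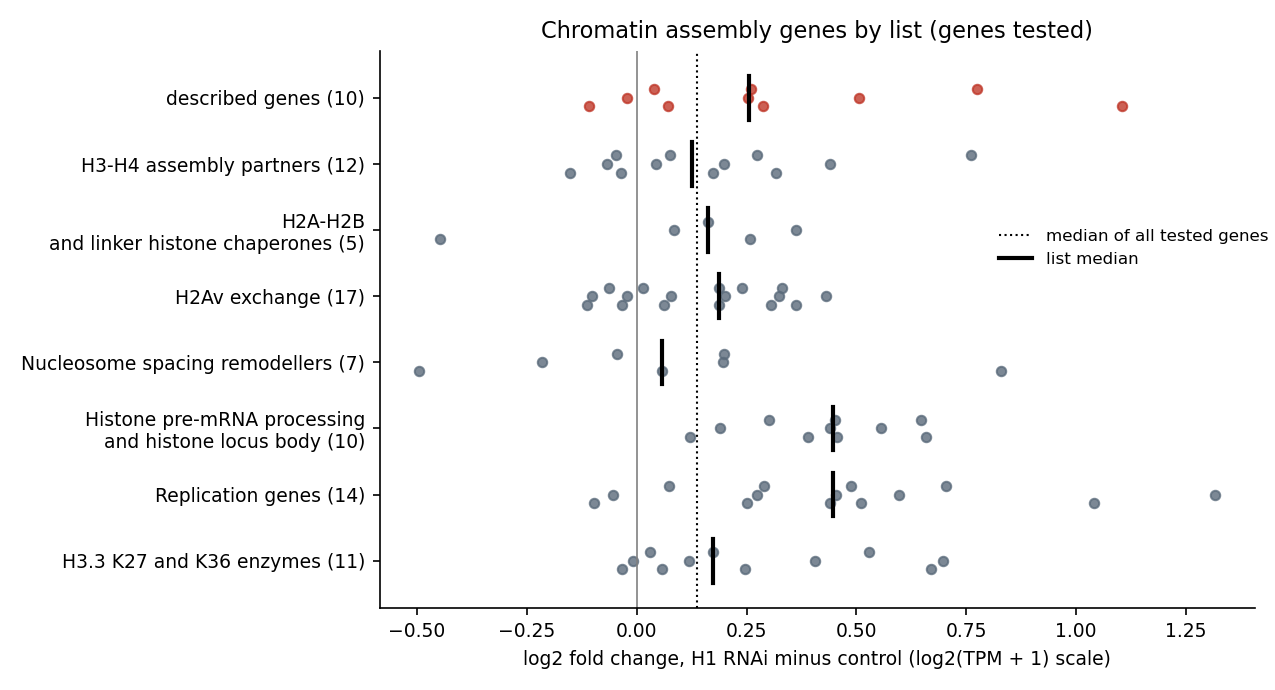
Log2 fold change, H1 RNAi minus control, of each tested gene (points) in the described set (red) and in 7 lists of chromatin and replication genes (grey), with the list median as a black bar and the median of all tested genes, 0.14, as a dotted line. The list medians run from 0.06 for the spacing remodellers to 0.45 for the histone processing and replication lists; those of the spacing remodellers and the H3-H4 assembly partners lie left of the line, and the other 6 lie right of it.

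The profile of His3.3A over the 6 libraries was compared with those of 4200 other tested genes with a mean of at least 20 TPM, by the root mean square distance between log2(TPM + 1) values centred on each gene's mean. The nearest were Coq6 (distance 0.126), Cul2 (0.141), CG32579 (0.151), unc-13 (0.162) and CG12204 (0.164), where the median distance was 0.551. Coq6 is an enzyme of ubiquinone synthesis, Cul2 a ubiquitin ligase scaffold and unc-13 a synaptic vesicle priming factor. All 5 had a higher mean in H1 RNAi, with log2 fold changes of 0.88 to 1.17. The distance takes in the difference between groups, so genes near His3.3A had to rise by a similar amount. Among the described genes above that level, asf1 ranked 12 by distance (0.200), while His4r, Nap1, His3.3B and His2Av ranked 2346, 2558, 2895 and 2996. These ranks largely restate the log2 fold changes given above and are not evidence apart from them.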

How the data were processed

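RNA came from sorted GFP-positive midgut cells, and the library kit is stranded and takes mRNA, per the labels. The authors deposited TPM per gene and library, rounded to 2 decimals. The submitters' processing notes name bcl2fastq and dm6; the aligner, the counting tool and annotation were not given in the sources used here. TPM keeps no depth, so counting error is unknown. Symbols came from a gene name table that paired 17710 of 17807 identifiers, coordinates from Ensembl release 115 (BDGP6.54, dm6 coordinates, 1-based).

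H1 RNAi was compared with control with limma 3.58.1 in R 4.3.3 on log2(TPM + 1). A mean trend and robust moderation were used, and 8124 genes that reached 1 TPM in 3 or more of the 6 libraries were fitted. P-values were adjusted by Benjamini and Hochberg at 0.05. Fold changes understate those of low genes. Sums, shares and ratios were compared by exact two-sided permutation with scipy 1.17.1 (Python 3.11.15). Errors are SD over 3 libraries or limma's SE. In data simulated for this comparison with 8124 independent genes and normally distributed errors, 84.8% of 2-fold and 97.9% of 4-fold changes were recovered. Of the simulated calls 5.67% were false. Changes were planted only above a minimum control level that Caf1-105, at a control mean of 3.57 TPM, did not reach, so recovery for such low genes is unknown.

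The 10 genes, the lists and the tests were chosen with earlier results of these data known. From each list up to 4 tested genes with the smallest adjusted p were named, and 5 profiles nearest to His3.3A. Renamed genes were matched by older symbols, and Ino80 and esg are not analysed here. Alternatives were other pseudocounts (0.1, 5), no filter or one at 5 TPM, TMM scaling (trims of 0.3 and 0.05, unweighted), quantile normalization, ordinary moderation, array weights, leaving out each library and a block for the replicate letter.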

Additional observations from a re-analysis of the deposited data

How the results depend on the processing

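The number of genes called, 230, was 90 with no filter on low values, 141 with TMM scaling, 146 with quantile normalization, 547 with array weights, and 29 to 450 on leaving out a library. The 29 came without H1 RNAi B and the 450 without control B. Of the 10 genes, 2 were called, against 0 with no filter, 1 with quantile normalization, 1 with ordinary moderation and 0 to 2 on leaving out a library. With no filter the log2 fold changes of His3.3A and asf1 were 1.10 (adjusted p = 0.0619) and 0.77 (0.0766), and no longer passed; more genes are tested there. The asf1 call was also lost with ordinary moderation (0.77, adjusted p = 0.0504) and quantile normalization (0.62), and leaving out a library gave 0.66 to 0.87. Hira passed only with array weights (0.54). Leaving out a library gave 0.96 to 1.22 for His3.3A, and moved values near 0 across it: -0.084 to 0.015 for His3.3B, -0.23 to 0.022 for His2Av, -0.018 to 0.16 for His4r, -0.037 to 0.13 for Nap1 and -0.21 to 0.18 for the difference in the Caf1-180 to Caf1-105 ratio. His4r was -0.062 and Nap1 -0.093 with TMM scaling, and Nap1 -0.018 with array weights. The cause of these changes was not tested. The other 153 values of the 10 genes, the H3.3 sum and share and the ratios kept their direction. Those of the 10 genes also kept their side of the threshold. The 153 include 9 values of the sum, 9 of the share, 7 of Hira to yem and 5 of Caf1-180 to Caf1-105. For these only the direction was compared, as their exact permutation p cannot go below 0.1.

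Libraries with the same letter are not said to share a batch. Their deviations from the group means correlated at 0.40 for A, 0.14 for B and 0.093 for C over the tested genes, and control B and H1 RNAi C were nearest to another letter. With the letter as a replicate block 142 genes were called, and His3.3A (adjusted p = 0.0162) and asf1 (0.0495) among them.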

Other observations

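Of 7 tested nucleosome spacing remodellers 0 passed by limma, 4 of 7 log2 fold changes were positive and 2 genes had an unadjusted p under 0.05, against 23.8% of all tested genes, with a list median of 0.06 against 0.14. Chrac-16, a histone-fold subunit of the CHRAC remodeller, had means of 7.61 ± 2.01 TPM in control, against 14.1 ± 1.72 TPM with H1 RNAi, a log2 fold change of 0.83 (adjusted p = 0.0787, and 0.0498 with array weights), while Acf, the large subunit of the same complex, was at 6.94 ± 1.11 and 4.64 ± 0.820 TPM (-0.49, adjusted p = 0.162; SD, n = 3 per group). Chrac-14, the partner of Chrac-16, had a log2 fold change of -0.21. With array weights 6.73% of all tested genes were called.

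Among 5 tested chaperones of H2A-H2B and linker histones 0 passed by limma and 1 had an unadjusted p under 0.05. It was Jabba, which holds histones on lipid droplets in fly embryos, at 40.9 ± 6.09 TPM in control, against 29.5 ± 2.63 TPM with H1 RNAi (a log2 difference of -0.45, adjusted p = 0.118). The nucleoplasmin-family genes Nlp and Nph were abundant, at 405 and 165 TPM in control, against 484 and 211 TPM after knockdown. Of 11 tested enzymes acting on H3 lysines 27 and 36, 0 passed and 4 had an unadjusted p under 0.05, where 23.8% of all tested genes did. For 6 of the 11 the groups did not overlap, all higher in H1 RNAi, against 24.3% of tested genes that were higher without overlap. The demethylase gene Kdm4A was at 8.54 ± 1.86 and 14.4 ± 2.16 TPM (a log2 difference of 0.70, limma adjusted p = 0.0847). Neither of 2 tested centromere genes passed. The one with an unadjusted p under 0.05 was cal1, the loader of the centromeric histone, at 8.08 ± 0.501 and 10.9 ± 0.705 TPM (0.39, adjusted p = 0.113).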
